A study of Mus musculus with 12 samples.

Results

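Immediate early response genes were followed in nascent RNA of mouse liver across the light:dark cycle. They were taken as the rows whose gene symbol is 1 of 10 listed names (Fos, Jun, Junb, Jund, Egr1, Atf3, Ier2, Ier3, Dusp1 and Myc). Of the 21490 symbols measured, 9 were members. Jund was not listed under that symbol, and the row Jund1, an older name of the same gene in RefSeq that lies at the GENCODE position of Jund, is given beside the members and not counted among them. Nascent-Seq sequences RNA recovered from the chromatin of purified nuclei, which is largely RNA still being transcribed. All livers came from adult wild-type male C57BL/6 mice of 3 to 6 months, kept for at least 2 weeks in 12 hr of light and 12 hr of dark. They were collected every 4 hr from ZT0 to ZT20, with zeitgeber time (ZT) counted in hours after the lights came on, in 2 replicate series, which gives 12 libraries. No group was left untreated or stimulated as a control, so each time point was compared with the others. How many animals went into a library is not given in the sources used here, and all p-values measure the spread between these libraries.

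Immediate early genes are switched on within minutes of a stimulus such as a growth factor, a hormone, stress or injury, from factors already present in the cell, and their transcripts and proteins are short-lived. Many encode transcription factors, such as the Fos and Jun proteins that pair as AP-1, and others encode phosphatases or other proteins that switch the signal off again. In liver they are known for their response to partial hepatectomy, to feeding and fasting signals and to the handling of the tissue itself.

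The signal is the read coverage of a gene's merged exons divided by their length (reads per base pair, rpbp), counting both strands. It is a length-normalized level, so genes can be set side by side, though only roughly. The study describes a 5′ to 3′ gradient in many genes and signal that runs past gene ends. The rpbp values of a library summed to between 118342 and 160545, and from 3390 to 4510 symbols exceeded 6 rpbp in 1 library. The depth of reads behind a value is unknown from this table, but the study lists more uniquely mapped reads for each ZT8 and ZT20 library than for any other. Values are rounded to 1 decimal, which is coarse for the lowest members. The ZT8 and ZT20 libraries were run in 2 lanes each and the other 8 in 1 lane, so lanes and time points cannot be told apart except within each kind. Libraries also differed in how the signal moved with exon GC content. The difference between high-GC and low-GC genes was -1.20 (log2) in ZT8 replicate 2 and -0.57 in ZT20 replicate 2, against -0.21 to 0.52 in the other 10. Members have exons of 52.0% (Fos) to 62.6% GC (Junb), against a median of 49.8% over tested genes. All 7 hepatocyte markers were present, with summed levels of 677.1 to 2143.3 rpbp. The 6 Kupffer cell and macrophage markers summed to 73.6 rpbp in ZT8 replicate 1 and 19.3 rpbp in ZT8 replicate 2, the highest and the lowest of the 12 libraries, and the 5 endothelial markers to 24.2 and 9.9 rpbp, again the highest and the lowest. Summed markers of stellate cells reached 14.2 rpbp at most, of bile duct cells 2.5, of lymphocytes 9.1, of neutrophils 0.2 and of red cell precursors 14.6 rpbp. Col1a1, Krt19, Krt7, Cd3e, Hbb-b1, S100a8 and S100a9 stayed at or below 0.5 rpbp in every library. The lymphocyte, neutrophil and red cell precursor sums were also highest in ZT8 replicate 1. In such bulk tissue, fewer cells of a type and less RNA per cell cannot be told apart.

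Promoters of early response genes are known for a few short elements that bind factors waiting in the uninduced cell, and 500 bases before the annotated start of the 10 listed genes were searched for 4 of them (mm9, GENCODE M1, counted back from -1). Each reads the same on both strands and was searched on both, and no match to 1 element overlapped a match to another. The CArG box, bound by serum response factor, was found upstream of Fos at -309 and of Egr1 at 5 places (-407, -369, -353, -105 and -83), that is in 2 of 10 genes against 2.71% of 22215 protein-coding promoters. The cAMP response element TGACGTCA was found in Ier2 and Dusp1 (2.21% of promoters). For AP-1 the loose string TGANTCA, with any middle base, was searched and found in Fos at -462 as TGAATCA (12.1%). The E-box CACGTG, a letter string that clock factors can bind, was found in Dusp1 and in Ier3 at -453 (10.2%). Stretches are printed for the members on which the results below turn (Junb and Dusp1) and, beside them, for Fos and Ier2 as examples of a CArG box and of a cAMP response element. That of Egr1, which has the most CArG boxes, is not printed. They are written 5′ to 3′ on the strand of the gene, with the matched element in capitals.
Fos (chr12:86814490-86814589, + strand, -350 to -251): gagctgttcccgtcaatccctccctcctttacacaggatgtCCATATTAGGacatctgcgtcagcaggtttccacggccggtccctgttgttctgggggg
Junb (chr8:87502618-87502767, - strand, -150 to -1): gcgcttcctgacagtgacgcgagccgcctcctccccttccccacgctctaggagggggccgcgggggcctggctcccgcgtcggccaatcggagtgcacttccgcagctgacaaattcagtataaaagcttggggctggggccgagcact
Ier2 (chr8:87186752-87186901, - strand, -150 to -1): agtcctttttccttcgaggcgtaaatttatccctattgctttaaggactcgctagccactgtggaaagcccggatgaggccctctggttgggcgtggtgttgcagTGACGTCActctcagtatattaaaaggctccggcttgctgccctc
Dusp1 (chr17:26645465-26645614, - strand, -150 to -1): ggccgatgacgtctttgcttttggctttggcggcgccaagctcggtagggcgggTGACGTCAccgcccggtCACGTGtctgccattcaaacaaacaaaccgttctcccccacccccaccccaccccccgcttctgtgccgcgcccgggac
The Dusp1 stretch holds both a cAMP response element (-96 to -89) and an E-box (-79 to -74), whereas the only match in Ier2 lies at -45 to -38. The Junb stretch has no capitals because none of the 4 letter strings occurs in its 500-base window, which says nothing of the factors themselves. These matches describe the sequence and were not measured as binding.

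Early response genes spanned a wide range of nascent RNA levels in these livers. Dusp1, the phosphatase that switches off MAP kinases, had by far the highest level, with a mean of 37.6 rpbp ± 21.3 (SD, n = 12), above that of 98.5% of symbols with any signal. Junb followed with 7.88 rpbp ± 5.28 and Jun with 5.60 rpbp ± 3.17, both AP-1 subunits. Jund1, the row for the third Jun family member, had 4.57 rpbp ± 1.47, the small nuclear protein gene Ier2 2.38 rpbp ± 0.772. The growth regulator Myc (1.87 rpbp ± 3.13), the zinc finger factor Egr1 (1.48 rpbp ± 1.09), Fos (0.542 rpbp ± 0.355), the stress-induced factor Atf3 (0.442 rpbp ± 0.312) and Ier3, a regulator of cell survival (0.167 rpbp ± 0.219), lay below the median symbol, whose mean level was 1.93 rpbp. Neighbours in this order were mostly not separated. Dusp1 exceeded Junb in 11 of 12 libraries (mean difference 29.8 rpbp ± 23.4), and Jund1 exceeded Ier2 in all 12 (2.18 rpbp ± 1.45). For the other 7 pairs of neighbours the mean difference in level was smaller than its own SD over the libraries, and the range of levels overlapped for each pair.

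**Figure D1:**
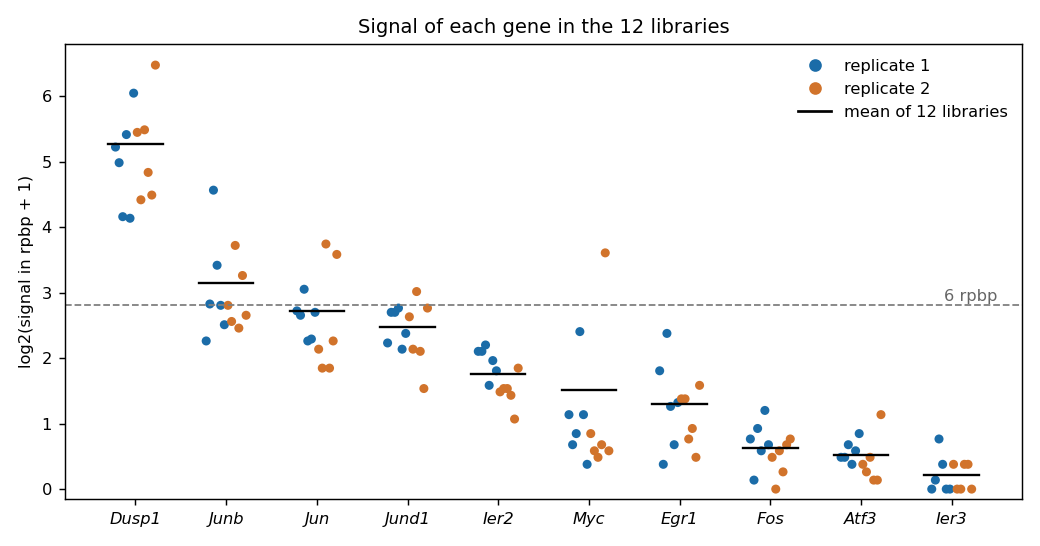
Signal of the 9 members and Jund1 on a log2(rpbp + 1) axis, 1 point per library (n = 12, replicate series in blue and orange), with a bar at the mean level of the 12 libraries and a dashed line at 6 rpbp. Dusp1 lies above 6 rpbp in every library, Junb in 5 and Jun in 3, and Fos, Egr1, Atf3, Ier2 and Ier3 in none.

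Changes over the day were tested for symbols that exceeded 6 rpbp in 1 library or more, which were 6284 in all. Of the 9 members, 4 passed it (Junb, Jun, Dusp1 and Myc) and 5 did not. Only Dusp1 passed in every library. Jun passed through both ZT8 libraries and ZT20 replicate 2, and Myc through ZT16 replicate 2 alone, so for these the limit itself favoured genes with a high library.

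Junb was the member with a time point set apart from the others. Junb (chr8:87498383-87502617, - strand) read 3.8 and 6.0 rpbp at ZT0 (replicates 1 and 2), 6.1 and 4.9 at ZT4, 22.7 and 12.2 at ZT8, 9.7 and 4.5 at ZT12, 6.0 and 8.6 at ZT16, and 4.7 and 5.3 at ZT20. Both ZT8 libraries lay above all 10 others, late in the light phase, and the other time points overlapped. Of all tested genes, 4.58% had both ZT8 libraries above the rest. The ZT8 mean of 17.4 rpbp ± 7.42 (SD, n = 2) was 2.93-fold the mean of the other 10 libraries (5.96 rpbp ± 1.85). On the log2(rpbp + 1) scale, which understates changes of low genes, ZT8 was 1.39 ± 0.27 (SE) above the mean of the other 5 time points (adjusted p = 0.0324, limma contrast with Benjamini-Hochberg adjustment over all genes and time points). Such a call at ZT8 in the higher direction was made for 1.32% of tested genes. The call did not hold without ZT8 replicate 1 (0.97, adjusted p = 0.142) and was lost on leaving out any of 5 other libraries, with adjusted p of 0.0537 to 0.0711. It was also lost when symbols of any level entered the fit (adjusted p = 0.114).

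The size of the ZT8 signal differed between its replicates, and other values moved with it. The 22.7 rpbp of Junb stood in the library with the highest Kupffer cell, macrophage and endothelial markers, and the 12.2 rpbp, still above the other 10 libraries, in the library with the lowest. The part of these cells in the result was not tested. Against ZT20 alone, whose libraries also took 2 lanes, ZT8 was higher by 1.56 ± 0.30 (log2, SE), with an adjusted p of 0.0605 (limma, a comparison added after seeing the data, which called 1.69% of genes). The Junb row also reaches over the row AK006748, which read 0 to 3.3 rpbp, and ends 170 bases from Prdx2, a peroxiredoxin gene that read 1.1 to 3.2 rpbp. Both were highest in ZT8 replicate 1. Without strand, the signal of overlapping rows cannot be told apart, and the part of either row in the Junb signal was not tested.

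Dusp1 was highest late in the dark phase. Dusp1 (chr17:26642536-26645406, - strand) read 36.4 and 42.7 rpbp at ZT0, 30.7 and 20.4 at ZT4, 16.9 and 43.9 at ZT8, 41.7 and 27.6 at ZT12, 16.6 and 21.5 at ZT16, and 65.2 and 88.1 at ZT20. Both ZT20 libraries exceeded all 10 others, as they did for 1.8% of tested genes, and the 4 hr before held the lowest mean, 19.1 rpbp at ZT16. The ZT20 mean of 76.7 rpbp ± 16.2 (SD, n = 2) was 2.57-fold the mean of the other 10 libraries (29.8 rpbp ± 10.8). The limma contrast of ZT20 gave a log2 difference of 1.40 ± 0.32 (SE) with an adjusted p of 0.0530, just beyond the limit of 0.05 that 0.509% of tested genes passed in this direction at ZT20. It passed when either ZT8 library was left out (adjusted p = 0.0368 without replicate 1 and 0.0283 without replicate 2) or ZT16 replicate 2 (0.0487), and had an adjusted p of 0.0501 to 0.247 without any of the other 9. The largest were 0.247 without ZT20 replicate 2, 0.130 without ZT20 replicate 1 and 0.103 without ZT0 replicate 1. The ZT8 libraries differed 2.60-fold from each other in Dusp1, a larger replicate difference than in 97.5% of tested genes at that time. Against ZT8 alone, ZT20 did not pass (log2 difference of ZT8 minus ZT20 -1.44 ± 0.45, adjusted p = 0.210, limma).

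Jun had high values at both of these times. Jun (chr4:94715746-94718878, - strand) read 5.6 and 3.4 rpbp at ZT0, 5.3 and 2.6 at ZT4, 7.3 and 12.4 at ZT8, 3.8 and 2.6 at ZT12, 3.9 and 3.8 at ZT16, and 5.5 and 11 at ZT20. The mean was 9.85 rpbp ± 3.61 at ZT8 and 8.25 rpbp ± 3.89 at ZT20 (SD, n = 2), and ZT20 replicate 1 overlapped the ZT0 and ZT4 libraries. ZT8 was 0.97 ± 0.28 (log2, SE) above the mean of the other time points with an adjusted p of 0.115, and ZT20 0.66 ± 0.28 above it with an adjusted p of 0.266 (limma). Both times are those of 2 lanes, and within them ZT8 and ZT20 differed by 0.26 ± 0.36 (adjusted p = 0.910, limma). The highest Jun values, unlike that of Junb, stood in replicate 2 at both times, the 2 libraries in which high-GC genes read lowest. Jun has exons of 55.5% GC. With the GC trend removed, its ZT8 difference was 1.21 (log2, adjusted p = 0.127, limma). The part of GC content in these values was not tested.

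Myc, a driver of cell growth, had high signal in single libraries and not in time points. Myc (chr15:61816896-61821916, + strand) read 1.2 and 0.8 rpbp at ZT0, 0.6 and 0.5 at ZT4, 0.8 and 0.4 at ZT8, 4.3 and 0.6 at ZT12, 1.2 and 11.2 at ZT16, and 0.3 and 0.5 at ZT20. Only ZT12 replicate 1 and ZT16 replicate 2 exceeded 1.2 rpbp, and the partner of each was low. The replicates differed 7.17-fold at ZT12 and 9.33-fold at ZT16, with log2(rpbp + 1) differences larger than in 99.2% and 99.3% of tested genes. Myc passed the limit of 6 rpbp only through ZT16 replicate 2, so these ranks are a description only. The ZT16 contrast was 1.51 ± 0.73 (log2, SE) with an adjusted p of 0.316 (limma). Gadd45g, a growth arrest and DNA damage response gene and one of the symbols most like Myc over the libraries, read 30 rpbp in ZT12 replicate 1 and 40.5 rpbp in ZT16 replicate 2 and 0.9 to 6.4 rpbp in the other 10, so it was high in the same 2 libraries. The Kupffer cell and macrophage markers summed to 34.0 rpbp in ZT16 replicate 2, inside the range of the other libraries. The part of any cell type in the Myc and Gadd45g values was not tested.

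**Figure D2:**
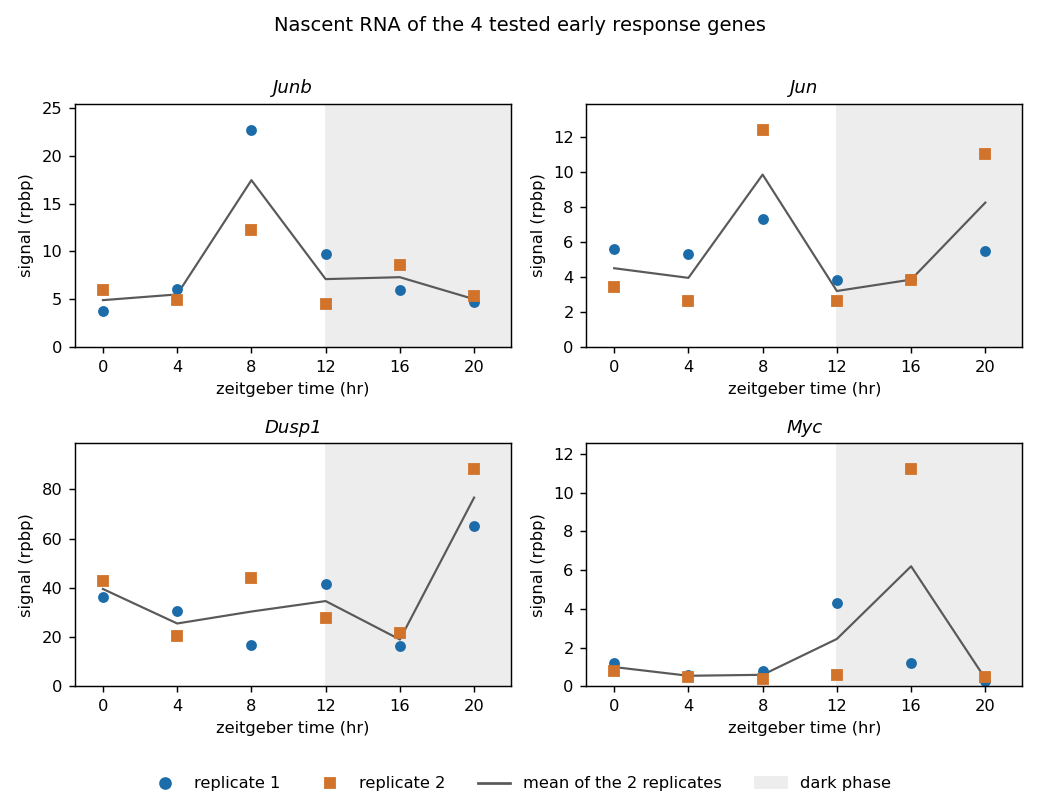
Signal in rpbp of the 4 tested members against zeitgeber time in hr, each replicate as a point, the mean of both replicates as a line, and the dark phase shaded. Both Junb points at ZT8 and both Dusp1 points at ZT20 lie above the other 10 of their gene, Jun is high at both times, and Myc is high in 1 replicate only at ZT12 and ZT16.

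None of the 4 tested members followed a 24-hr rhythm by the criteria of the study, which ask for a permutation p under 0.05, over 0.45 of the variance in a 24-hr cosine (F24) and a ratio of highest to lowest value above 1.5. These criteria called 15.2% of tested genes, and 16.4% had a permutation p under 0.05, which 0 of the 4 members had. F24 was 0.375 for Junb with a phase of 9.02 hr (one-sided permutation p = 0.0557, 100000 permutations, adjusted p = 0.320). It was 0.290 for Dusp1 (phase 20.8 hr, permutation p = 0.215), 0.256 for Myc (phase 15.1 hr, permutation p = 0.240) and 0.0149 for Jun, whose high times lie 12 hr apart (permutation p = 0.926). Without ZT12 replicate 2, Junb met the criteria (F24 = 0.539, permutation p = 0.00466).

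A test that asks for differences of any shape between time points, the moderated F-test of limma, found 0 of 4 members at an adjusted p under 0.05, against 8.4% of tested genes. At an unadjusted p under 0.05 it found 3 of 4, against 28.3%. The adjusted p was 0.0638 for Junb, 0.0743 for Dusp1, 0.105 for Jun and 0.517 for Myc. With the GC trend removed, Junb passed (adjusted p = 0.0454), and the adjusted p was 0.131 for Dusp1, 0.130 for Jun and 0.599 for Myc. In the contrasts of single time points, 1 of 4 members was called, Junb at ZT8, against 8.08% of tested genes with any time point apart. Among the 4 time points run in 1 lane, where neither ZT8 nor ZT20 enters, the adjusted p was 0.653 for Junb, 0.226 for Dusp1, 0.823 for Jun and 0.490 for Myc, and 0 of 4 passed at a background of 2.15%. At an unadjusted p under 0.05 the same fit had 1 of 4, Dusp1, against 20% of tested genes.

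**Figure D3:**
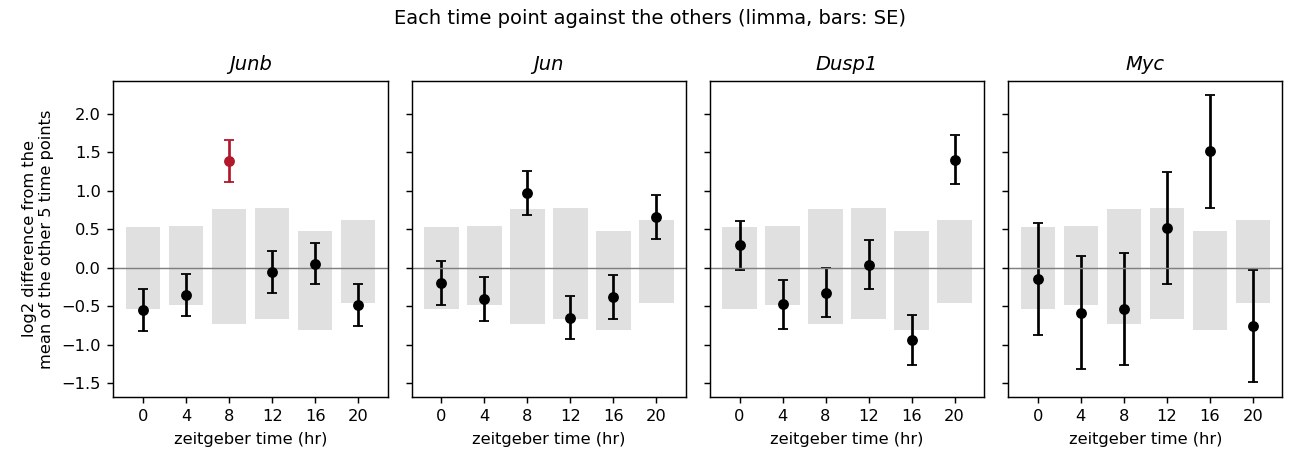
Difference of each time point from the mean of the other 5 on the log2(rpbp + 1) scale against zeitgeber time in hr, with the SE from limma as bars. Junb at ZT8 (red, 1.39) is the only point with an adjusted p under 0.05, and grey boxes span the 5th to 95th percentile of all tested genes at that time.

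The highest time point of 3 of the 4 tested members was the same in both replicate series (ZT8 for Junb and Jun, ZT20 for Dusp1), against 34.1% of tested genes. Over all 9 members it was the same in 4, with Atf3 at ZT20 added. The 4 tested members varied more over the libraries than most genes. The SD divided by the mean was 0.670 for Junb, 0.566 for Jun, 0.565 for Dusp1 and 1.68 for Myc, with a median of 0.618 against 0.252 over all tested genes. Their replicates differed more as well, by a median of 0.50 (log2) against 0.26, and 73.6% of their log2 variance lay between time points against 64.2% (medians). With the limit of 6 rpbp favouring genes with a high library, the shared highest times and these medians are a description only. Jun passed that limit only through libraries of ZT8 and ZT20.

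Members below the limit are given by their values. Egr1 read 2.5 and 1.6 rpbp at ZT0, 0.3 and 1.6 at ZT4, 4.2 and 0.7 at ZT8, 1.4 and 0.9 at ZT12, 0.6 and 0.4 at ZT16, and 1.5 and 2.0 at ZT20, so its highest value, like that of Junb, stood in ZT8 replicate 1, while the partner library was among the lowest. Fos (chr12:86814851-86818219, + strand) read 0.7 and 0.4 rpbp at ZT0, 0.1 and 0.0 at ZT4, 0.9 and 0.5 at ZT8, 0.5 and 0.2 at ZT12, 1.3 and 0.6 at ZT16, and 0.6 and 0.7 at ZT20. The ZT4 libraries of Fos were the lowest of the 12. Atf3 (chr1:192994176-193007212, - strand) read 0.4 and 0.3 rpbp at ZT0, 0.4 and 0.2 at ZT4, 0.6 and 0.4 at ZT8, 0.3 and 0.1 at ZT12, 0.5 and 0.1 at ZT16, and 0.8 and 1.2 at ZT20. Both ZT20 libraries of Atf3 lay above the other 10, as for Dusp1, at levels near the rounding of the table, which held for 0.915% of the 20756 symbols with any signal. When all symbols were fitted without the limit, the F-test of limma gave an unadjusted p of 0.0237 for Fos (adjusted p = 0.221) and 0.0243 for Atf3 (adjusted p = 0.224), and 0.301 for Egr1.

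Ier2 (chr8:87183450-87186747, - strand) was the steadiest member, with 3.3 and 1.8 rpbp at ZT0, 3.3 and 1.9 at ZT4, 3.6 and 1.9 at ZT8, 2.0 and 1.7 at ZT12, 2.9 and 1.1 at ZT16, and 2.5 and 2.6 at ZT20. At 5 of 6 time points replicate 1 was above replicate 2, and the unadjusted F-test p without the limit was 0.824 (limma). Its nearest listed neighbour, AK037841, lies 2279 bases away and read 1.1 to 4.4 rpbp. Ier3 (chr17:35958658-35959856, + strand) was listed at 0 in 6 of 12 libraries and read at most 0.7 rpbp, in ZT8 replicate 1, with Flot1, a membrane raft gene, 445 bases away at 1.9 to 5.6 rpbp. Jund1 (chr8:73222848-73224515, + strand) read 3.7 and 5.2 rpbp at ZT0, 5.5 and 3.4 at ZT4, 5.5 and 7.1 at ZT8, 5.8 and 3.3 at ZT12, 3.4 and 1.9 at ZT16, and 4.2 and 5.8 at ZT20. Its limma F-test adjusted p was 0.274 and its F24 0.201 (permutation p = 0.360), so unlike for Junb no time point was called, the nearest being a ZT16 difference of -0.71 ± 0.24 (log2, SE, adjusted p = 0.168, limma).

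**Figure D4:**
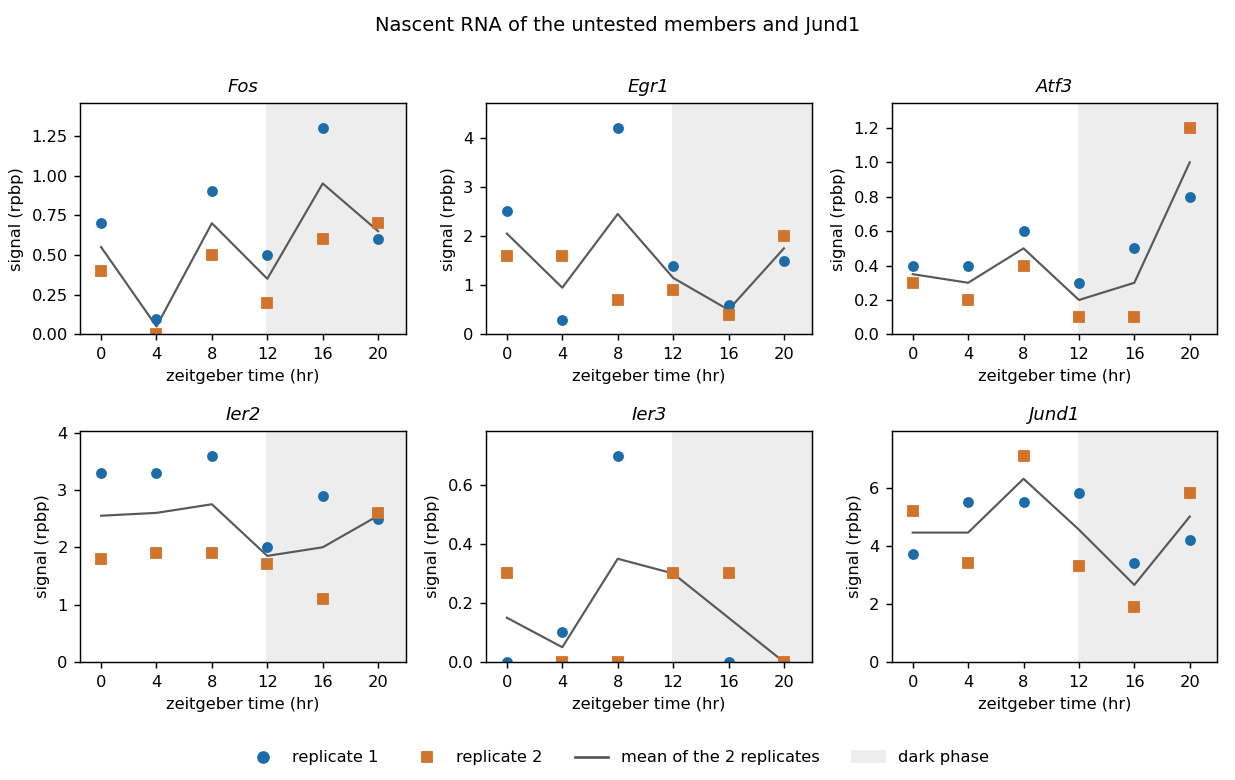
Signal in rpbp of the 5 members below the limit of 6 rpbp and of Jund1 against zeitgeber time in hr, drawn as for the tested members, each gene on its own axis. Atf3 is highest at ZT20 in both replicates, Fos lowest at ZT4, and Egr1 has 1 high library (4.2 rpbp, ZT8 replicate 1).

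Genes whose log2(rpbp + 1) profile was most like that of a member over the 12 libraries were looked up, with Pearson's r as a description. All points share the libraries, so depth and GC content enter each coefficient. For Dusp1 they were Sdro (r = 0.889, Spearman's rho = 0.881), the histone gene Hist1h4d (0.847, 0.809) and the scavenger receptor gene Colec12 (0.826, 0.734). Without the 2 libraries farthest from the median of Dusp1, ZT16 replicate 1 and ZT20 replicate 2, r was 0.814, 0.802 and 0.685. The other high library, ZT20 replicate 1, stayed in. For Junb they were Lass6, a ceramide synthase gene (0.892, 0.699), cot, a synonym of the MAP kinase kinase kinase gene Map3k8 (0.835, 0.603) and AK080009 (0.827, 0.656). Without the 2 outermost libraries of Junb, r was 0.529, 0.371 and 0.674. These were both ZT8 libraries, so all of its ZT8 values were left out, unlike the ZT20 values of Dusp1. For Jun they were sr528 (0.893, 0.765), Lrrn3 (0.888, 0.861) and AK012776 (0.887, 0.733), each with r of 0.662 to 0.753 without 2 libraries. For Myc they were Opn3, an opsin gene (0.927, 0.535), Gadd45g (0.904, 0.638) and the forkhead factor gene Foxq1 (0.901, 0.732), with r of 0.412, 0.513 and 0.626 without the 2 outermost libraries. For Jund1 they were the glucose transporter gene Slc2a2 (0.895, 0.780), the mRNA decay factor gene Zfp36 (0.879, 0.854) and the thiopurine methyltransferase gene Tpmt (0.859, 0.773), with r of 0.789, 0.749 and 0.709 without 2 libraries.

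Other stimulus-induced early genes were taken from a list of 53 symbols, of which 49 were in the table and 19 were tested. They passed the same limit of 6 rpbp, which favours genes with a high library. Of these 19, 5 were rhythmic (26.3%, against 15.2% of tested genes). With a mean over 6 rpbp it was 3 of 15 (20%, against 15.6%), and at a limit of 3 rpbp 9 of 28 (32.1%, against 13.6%). By the F-test of limma, 4 of the 19 differed between time points at an adjusted p under 0.05 (21.1%, against 8.4%). At an unadjusted p under 0.05 it was 11 (against 28.3% of tested genes). The 4 called by the adjusted F-test were Per1, a clock gene that also responds to stimuli, Cebpb, a factor of the acute phase and of metabolism, the kinase gene Pim3, and Socs3, the inhibitor of cytokine signalling. Per1 read 16.8 and 30.4 rpbp at ZT12 against 0.8 and 1.2 at ZT0 and 1.2 and 0.5 at ZT4, with an F24 of 0.627 and a phase of 12.8 hr (permutation adjusted p = 0.0413; limma F adjusted p = 0.000899). Cebpb read 41.9 and 25.4 rpbp at ZT12 and 5.5 in both ZT20 libraries (adjusted p = 0.00789, limma), and Pim3 29.1 and 37.3 rpbp at ZT12 against 5.1 and 6.2 at ZT0 (adjusted p = 0.00789, limma). Socs3 read 9.8 and 7.3 rpbp at ZT16, 8.9 and 4.0 at ZT12, and 1.0 and 1.1 at ZT20 (adjusted p = 0.0143, limma). These 4 were highest around and after lights off, not at ZT8 or ZT20 like Junb and Dusp1. Over the 19 genes the highest mean fell at ZT8 in 8 (42.1%, against 24.0% of tested genes), at ZT12 in 6 (31.6% against 27.5%), at ZT16 in 3 (15.8% against 7.56%) and at ZT20 in 0 (against 11.9%). It fell at ZT0 in 1 (5.26% against 11.6%) and at ZT4 in 1 (5.26% against 17.4%). With 19 genes these counts are small, and they were not tested.

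Kinases and factors that act on the early genes were taken from a list of 32 symbols, 31 in the table and 15 tested. Of these 3 were rhythmic (20%, against 15.2%), and the F-test of limma called 0 at an adjusted p under 0.05 (against 8.4%) and 3, or 20%, at an unadjusted p under 0.05, below the 28.3% of all tested genes. The strong rhythm by F24 was that of Nab1, a corepressor of Egr factors, with 3.4 to 6.6 rpbp, an F24 of 0.727 and a phase of 4.64 hr (permutation p = 0.00259, adjusted p = 0.10). Its limma F-test adjusted p was 0.190. The median SD divided by the mean was 0.225 for these genes and 0.380 for the 19 early genes. It was 0.618 for the 4 tested members and 0.252 over all tested genes. The rpbp limit favours genes with a high library, and Myc passed it through ZT16 replicate 2 alone. These medians are therefore a description only, and the difference between the lists was not tested.

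**Figure D5:**
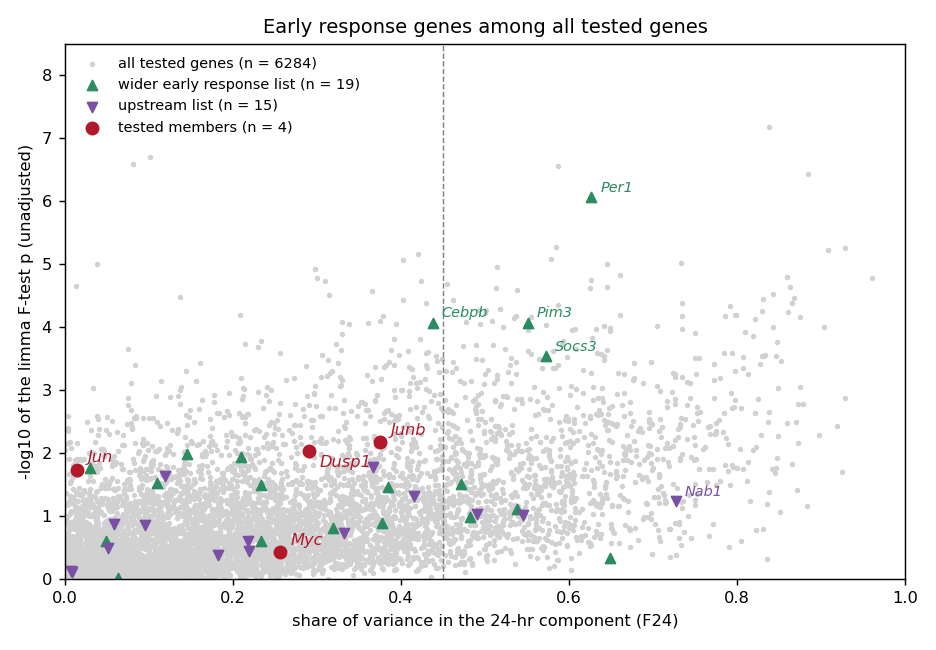
Share of variance in the 24-hr component (F24) against -log10 of the unadjusted limma F-test p for the 6284 tested genes (grey), the 19 further early genes (green), the 15 upstream genes (purple) and the 4 tested members (red), with the F24 limit of 0.45 dashed. The members lie left of the limit, with Jun at 0.0149 and Junb at 0.375, and Per1 lies highest among the listed genes.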

How the data were processed

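Nascent-Seq signal of 12 mouse liver libraries was used, grouped by the time point and replicate number in the labels. The submitters' processing notes name CASAVA 1.7 and TopHat. The authors aligned reads to mm9, kept unique matches, merged the lanes of a library, and deposited the signal, which is coverage over merged exons per base pair (rpbp), without strand, scaled to the same number of reads per library. Count models were not used, since the values are normalized. Blank lines (27919) were dropped, and the deposited statistics of rhythm (F24, phase, p) were not used.

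The tested symbols (6284) exceeded 6 rpbp in 1 library or more. F24 was computed on linear values with 100000 one-sided permutations (numpy 2.4.6). Log2(rpbp + 1) values were fitted with limma 3.58.1 (R 4.3.3, intensity-dependent prior) for the F-test over 6 time points and for contrasts of each time point with the mean of the other 5, two-sided. Benjamini-Hochberg adjustment ran over all tested genes, and for contrasts over the 6 time points too. Fits were tested on simulated data. Exon GC content (97.9% of tested symbols), strand, starts and promoter sequence came from the NCBIM37 genome, the same build as mm9, with GENCODE M1. Coordinates count from 1.

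All 10 listed genes are named. Listed early and upstream genes are named if they passed the limma F-test or had a strong rhythm (F24 over 0.6, highest over lowest above 1.75). The 3 tested symbols of highest Pearson's r per member, and rows within 5000 bases of a member, are named too. The members, lists and tests were chosen with earlier results of these data known. Alternatives were thresholds of 3 and 12 rpbp, on the mean, or none, pseudocounts of 0.1 and 3, log2 values for F24, adjusted permutation p, median ratio scaling, removal of the GC trend, replicate and lane blocks, the 4 time points of 1 lane, each library left out and, added after seeing the data, ZT8 against ZT20.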

Additional observations from a re-analysis of the deposited data

How the results depend on the processing

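Of the 4 tested members, 0 were rhythmic under every alternative except without ZT12 replicate 2 (range over libraries left out 0 to 1). The F-test of limma called 0, but 1 with the GC trend removed (Junb) and 0 to 1 over libraries left out. A time point stood apart in 1 member, in 2 at a threshold of 12 rpbp (Junb and Dusp1), in 0 with no filter, among the 4 time points of 1 lane and for ZT8 against ZT20, and in 0 to 2 over libraries left out. Without ZT8 replicate 1 the call was that of Dusp1 at ZT20. The Junb difference at ZT8 ranged from 0.97 to 1.81 (log2) over libraries left out, with adjusted p of 0.0253 to 0.142, and that of Dusp1 at ZT20 from 1.19 to 1.62, with adjusted p of 0.0283 to 0.247 (limma). Of the wider list, 5 of 19 tested genes were rhythmic (15.2% of all tested), 9 of 28 at a threshold of 3 rpbp (13.6%), 3 of 15 at 12 rpbp (17.8%), 3 of 15 with a mean over 6 rpbp (15.6%), 9 of 48 with no filter (10.7%), 8 of 19 with the GC trend removed (18.1%), 1 of 19 by adjusted permutation p (0.764%), and 4 to 7 over libraries left out. The F-test called 4 of that list and 4 to 7 over libraries left out, with 7 without ZT16 replicate 1. The median SD over the mean of the members was 0.618, 0.750 with the GC trend removed and 0.569 to 0.657 over libraries left out. The cause of these shifts was not tested. No result turned its direction. With the replicate number as a block, 0 members were rhythmic, 0 passed the F-test and 1 had a time point apart (Junb at ZT8, adjusted p = 0.0419, limma). Correlations of replicate differences between time points ran from -0.12 to 0.32, with a median of 0.07 and 5 of 15 over 0.1. They cannot decide whether the numbers pair the samples. By the read numbers of the study, the ZT8 and ZT20 libraries were the deepest, so depth cannot be told apart from these time points. With 2 replicates per time point, each mean is limited.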

Other observations

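Of the early and upstream genes called rhythmic, the others are given here, chosen after their values were seen. Zfp36l1, an mRNA decay factor gene, had a phase near ZT0 (F24 = 0.537, permutation p = 0.0241), with means of 38.1 rpbp at ZT0 and 16.5 rpbp at ZT12. The kinase gene Pim1 had a phase of 5.12 hr (F24 = 0.472, permutation p = 0.0178) and means of 9.45 rpbp at ZT4 and 3.80 rpbp at ZT20, unlike its paralog Pim3, which was highest at ZT12. The difference between the 2 was not tested. Among the upstream genes, Crem, a cAMP-responsive factor gene, had a phase of 21.7 hr (F24 = 0.545, permutation p = 0.0371), and Mapk14, which encodes the p38 kinase that Dusp1 acts on, a phase of 14.5 hr (F24 = 0.491, permutation p = 0.0273). The adjusted permutation p of these genes was 0.202 or more.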
